A study of Rattus norvegicus with 12 samples.

Results

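Gene expression of VAMP7KO and ATG5KO NRK cells was compared directly, with neither line serving as the control of the other. The libraries were chosen by their genotype label, which gives 8 of the 12 RNA-seq libraries of the series, 4 of VAMP7KO and 4 of ATG5KO. The remaining 4 are of wild-type (WT) cells and are shown only as a reference level. NRK is an established line from normal rat kidney, labelled as epithelial. Both knockouts were made with CRISPR-Cas9, from a plasmid that also carried GFP, and GFP-positive cells were sorted singly into wells, so that each knockout line grew from 1 cell. A difference due to the lost gene and one due to the clone therefore cannot be told apart. All cells were kept in complete growth medium without treatment, and each library holds the polyadenylated RNA of 1 dish. The libraries of a genotype are numbered 1 to 4, and the study refers to them as independent experiments.

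VAMP7 is a vesicle SNARE of late endosomes and lysosomes, a membrane protein that pairs with partner SNAREs on a target membrane and drives the fusion of the 2 membranes. It takes part in the release of late endosomal content from the cell. ATG5 acts in autophagy, where its conjugate with ATG12 helps to attach lipid to LC3 and so lets the autophagosome membrane grow. Cells without VAMP7 are thus short of a fusion step of endosomal secretion, whereas cells without ATG5 are short of a step in the formation of autophagosomes.

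The 8 libraries hold 21090858 to 30312956 reads counted on genes. Levels are given as CPM, the counts of a gene scaled to a common library size with TMM normalization, and 3 counts stand for 0.099 to 0.142 CPM in these libraries. Where every library of a line had 3 counts or fewer of a gene, that line is said here to be at the floor, and the fold is then a lower bound that covers counting error alone. In each genotype, libraries 1 and 2 resembled each other, as did libraries 3 and 4, and the 2 pairs stood apart. The chi-square statistic per gene was 3.1 to 25.6 within such a pair and 141 to 239 between library 1 and library 3 of a genotype. Libraries 1 and 2, and libraries 3 and 4, are called sets here, and the labels do not say what the sets have in common. The fit carried the set as a block. The spread behind the p-values holds that between libraries of 1 set. It also holds any change of the difference between lines from set to set, for which the fit has no term. The libraries of a set enter the test as separate although they are so alike. When the libraries of each set were summed, 1976 genes differed, against 6289 in the fit with separate libraries. Of the 166 genes named here, 25 were no longer called when summed. The count of a gene list when summed by set is given beside its count where the number higher or lower moved by over 1.5 times.

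Of 20842 genes in the table, 13141 were tested, and 1737 of the tested genes have a symbol. Symbols came from the study's own lists of genes changed against WT, one of them read in part. Named genes were therefore selected on these same libraries, and they lean to one side: their median log2 fold change was -0.91, against 0.00 over all genes tested. A count among named genes is to be read against that lean and is not independent evidence of a direction: a list with about 59.1% of its members lower and 19.6% higher in VAMP7KO, the shares of all named genes, is at that background. Atg5 itself and the core autophagy genes have no symbol in these lists and were not analysed here.

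The targeted gene separated the lines in the labelled direction. Vamp7 (ENSRNOG00000008372) had 51.9, 49.4, 41.6 and 42.2 CPM in VAMP7KO libraries 1 to 4 and 125, 129, 129 and 129.98 CPM in ATG5KO libraries 1 to 4. Each VAMP7KO library was below each ATG5KO library (2-sided exact permutation test over 4 against 4 libraries, p = 0.0286, the smallest that this design allows). The means were 46.2 ± 5.17 CPM (SD, n = 4) and 128 ± 2.15 CPM, with 111 CPM in WT. The log2 fold change of VAMP7KO against ATG5KO was -1.47 (standard error 0.0713), so reads of the gene were fewer in its knockout but not absent.

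The 2 lines differed widely. An adjusted p under 0.05 (quasi-likelihood test of edgeR, adjusted over all genes tested by the Benjamini-Hochberg method) was found for 6289 of 13141 genes, or 47.9%. Of these, 3004 (22.9%) were higher in VAMP7KO and 3285 (25.0%) were lower. Most differences were small, with a median size of 0.57 on the log2 scale among the genes that differed. A fold of at least 2 was reached by 1753 genes (13.3%), of which 611 (4.65%) were higher and 1142 (8.69%) lower in VAMP7KO. In 3731 genes (28.4%) the 4 libraries of one line did not overlap those of the other, and this held for 64.9% of the tested genes with a symbol. For 2586 genes the 95% interval of the fold lay within 1.25-fold on either side, which is 19.7% of the genes tested. Among the 1737 tested genes with a symbol, 78.6% differed, 19.6% being higher and 59.1% lower in VAMP7KO.

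**Figure D1:**
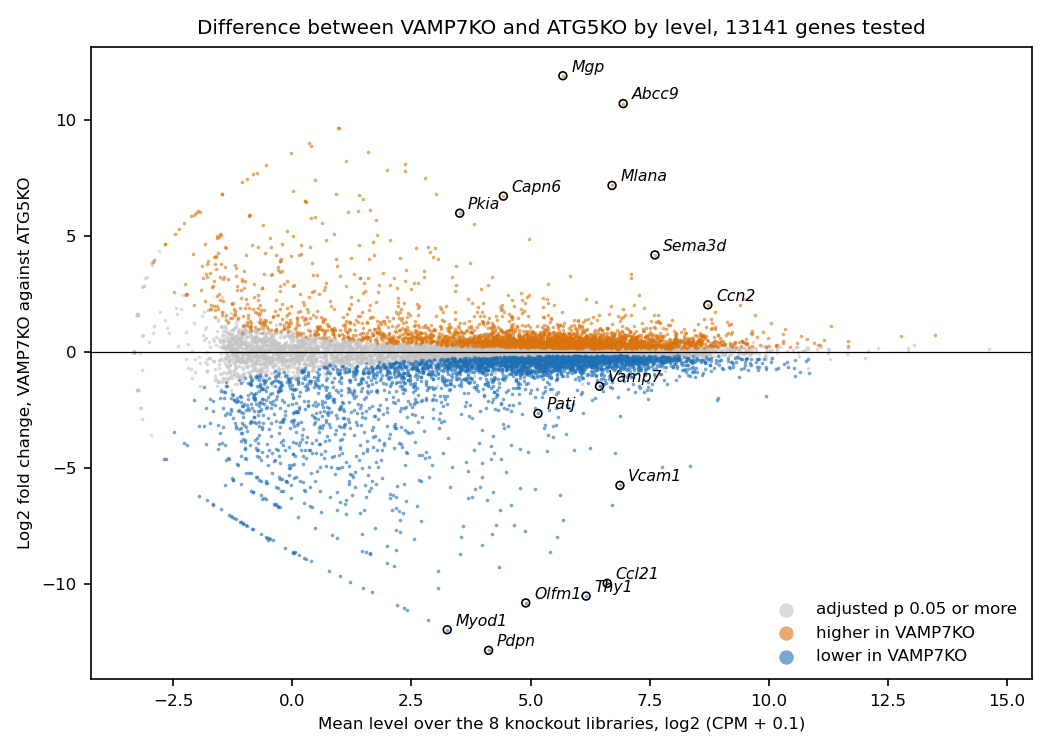
Log2 fold change of VAMP7KO against ATG5KO (vertical axis) by mean level over the 8 libraries (horizontal axis, log2 of CPM + 0.1) for the 13141 genes tested, with the 3004 genes higher in VAMP7KO in orange, the 3285 lower genes in blue and the rest in grey. Labelled genes are described in the text, with Mgp and Abcc9 at the top and Pdpn and Myod1 at the bottom. Where one line was at the floor, the height of the point depends on the prior count of the fit and is not a measured fold.

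Several genes were read in VAMP7KO and were at the floor or far lower in ATG5KO. Mgp (ENSRNOG00000005695), which encodes matrix Gla protein, an inhibitor of calcification, had 128, 182, 44.9 and 53.3 CPM in the 4 VAMP7KO libraries and 0, 0, 0.0359 and 0.0461 CPM in the 4 ATG5KO libraries. It was at least 836-fold higher in VAMP7KO, and WT cells averaged 46.9 CPM, between the 2 knockouts. Abcc9, the sulfonylurea receptor SUR2 of ATP-sensitive potassium channels, had 449.6, 398, 68.1 and 68.2 CPM against 0.0465, 0.381, 0.0718 and 0 CPM (log2 fold change 10.71, standard error 0.226), with 15.9 CPM in WT. The 2 sets of VAMP7KO differed several-fold in both genes, yet no library of VAMP7KO came near one of ATG5KO. Mlana, a melanosomal protein best known from pigment cells, had 233, 358, 113 and 127 CPM in VAMP7KO and 2.69, 1.08, 1.22 and 0.875 CPM in ATG5KO. Capn6, a calpain without protease activity that binds microtubules, had 50.8, 60.8, 28.9 and 29.5 CPM against 0.418, 0.763, 0.18 and 0.23 CPM. Pkia, an inhibitor of protein kinase A, was steady in VAMP7KO (23.8, 21.9, 22.4 and 21.2 CPM) and low in ATG5KO (0.0929, 0.312, 0.539 and 0.415 CPM). In Capn6 and Pkia, WT averaged 19.9 and 15.9 CPM, below the VAMP7KO means and far above those of ATG5KO.

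In other genes of this group WT resembled ATG5KO. Limch1, an activator of non-muscle myosin, had 8.99, 7.37, 10.7 and 13.2 CPM in VAMP7KO, 0, 0, 0 and 0.184 CPM in ATG5KO and 0.317 CPM on average in WT. Abi3bp, an extracellular matrix protein, had 95.3, 82.8, 30.8 and 30.9 CPM against 3.48, 2.29, 1.26 and 1.01 CPM, with 2.26 CPM in WT. Itga8, the integrin alpha 8 chain that binds nephronectin, had 19.8, 16, 8.88 and 10.2 CPM against 0.883, 0.763, 0.467 and 0.23 CPM, with 1.59 CPM in WT. The 2 lines did not overlap in any of these 3 genes. Slc26a7, an anion transporter, was carried by 1 set: it had 21.6, 17.2, 0.794 and 0.781 CPM in VAMP7KO, so that libraries 1 and 2 held nearly all of it, against 0.0929, 0, 0.0359 and 0 CPM in ATG5KO.

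The opposite pattern, a gene read in ATG5KO and not in VAMP7KO, was seen for a muscle transcription factor and for several surface and secreted proteins. Pdpn (ENSRNOG00000014961), the mucin-type glycoprotein podoplanin, had 0 counts in all 4 VAMP7KO libraries and 36.6, 38.2, 30.7 and 32.9 CPM in ATG5KO, at least 296-fold more. Myod1 (ENSRNOG00000011306), the transcription factor that starts skeletal muscle differentiation, was likewise at 0 in VAMP7KO and had 21.6, 23.6, 14.9 and 15.3 CPM in ATG5KO, at least 161-fold more. Npr2, the receptor of C-type natriuretic peptide, was at 0 against 21, 16.8, 9.88 and 9.26 CPM. Igfbp7, a secreted binding protein of insulin-like growth factors, was at 0 against 8.32, 8.43, 12.8 and 12.3 CPM. All 4 were at or near 0 in WT too, the highest WT mean being that of Myod1 with 0.3 CPM.

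Thy1 (ENSRNOG00000006604), a surface glycoprotein that marks fibroblasts and thymocytes, had 0, 0.452, 0 and 0 CPM in VAMP7KO and 197, 217, 82.5 and 77.8 CPM in ATG5KO. Its log2 fold change was -10.52 (standard error 0.432), and the reads of VAMP7KO came from library 2 alone. Ccl21, a chemokine that draws lymphocytes and dendritic cells to lymph nodes, had 0.301, 0.181, 0.181 and 0.0823 CPM against 238, 219.5, 164 and 158 CPM (log2 fold change -9.97, standard error 0.235). Olfm1, a secreted olfactomedin, was at the floor in VAMP7KO and had 50.5, 46.8, 67.5 and 73.3 CPM in ATG5KO, at least 509-fold more. Ptgs2, the inducible cyclooxygenase of prostaglandin synthesis, had 0.167, 0.226, 0 and 0 CPM against 38.7, 43.6, 20.8 and 21.6 CPM. Medag, a gene linked to fat cell formation, had 0.1, 0.407, 0.108 and 0.288 CPM against 103, 98.3, 68.5 and 70.6 CPM. WT averages were low in all 5 genes, the highest being that of Olfm1 with 1.2 CPM. Chmp4c, a subunit of the ESCRT-III complex that cuts membrane necks, was at the floor in VAMP7KO and had 16.6, 18.7, 13.7 and 16.4 CPM in ATG5KO, at least 139.9-fold more. Shisa4 was at the floor in VAMP7KO and had 70.01, 72.6, 10.1 and 9.26 CPM in ATG5KO, where set 1-2 was several times set 3-4. Slc37a2, a sugar phosphate transporter, had 0, 0.226, 0 and 0 CPM against 43.7, 24.2, 12 and 10.9 CPM.

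**Figure D2:**
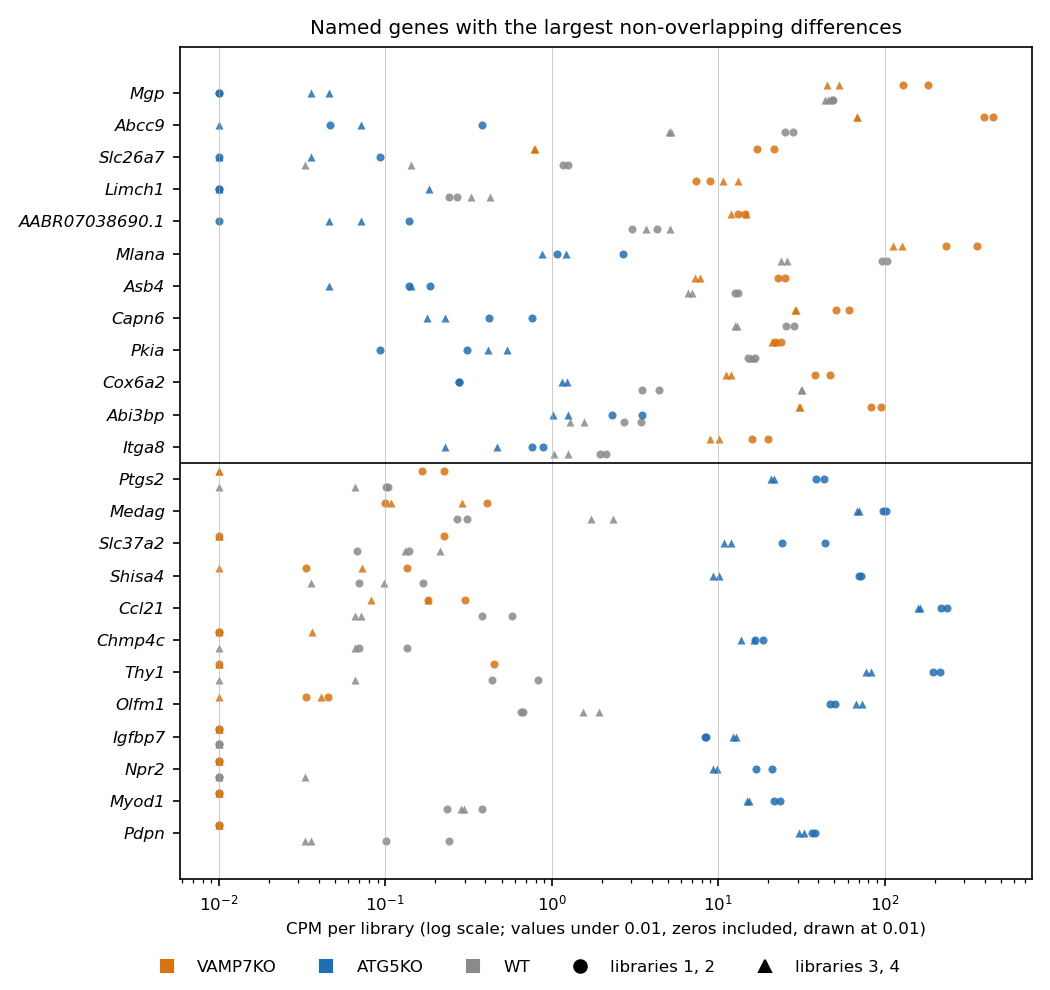
CPM of each library (horizontal axis, log scale, values under 0.01 drawn at 0.01) for the 24 named genes with the largest non-overlapping differences, with VAMP7KO in orange, ATG5KO in blue and WT in grey; circles are libraries 1 and 2 and triangles libraries 3 and 4. In the upper 12 genes all VAMP7KO libraries lie to the right of all ATG5KO libraries, and in the lower 12 all lie to the left.

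Among genes that both lines expressed, the difference in favour of VAMP7KO with the smallest p was that of Sema3d (ENSRNOG00000007202), a secreted semaphorin that guides axons and migrating cells. It had 368, 331, 391 and 393 CPM in VAMP7KO and 19, 21.5, 18.6 and 22.2 CPM in ATG5KO, with 57 CPM in WT. The log2 fold change was 4.18 (standard error 0.0961, edgeR adjusted p = 1.31e-11), and the 2 sets differed little. Odc1, the first enzyme of polyamine synthesis, had 539, 565, 879 and 884 CPM against 166, 185, 262 and 251 CPM (log2 fold change 1.71). Plcb1, a phospholipase C that acts downstream of Gq-coupled receptors, averaged 23.6 ± 9.98 CPM against 6.16 ± 2.58 CPM. Ctbs, a lysosomal enzyme that splits chitobiose, averaged 43.4 ± 2.97 CPM against 11.9 ± 1.02 CPM. The homeobox gene Msx2 (1.49 on the log2 scale), the heat shock protein gene Hspa4l (1.42) and Lmo4, a LIM-only transcriptional cofactor (1.01), were higher in VAMP7KO by smaller amounts, without overlap between the lines.

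Of expressed genes lower in VAMP7KO, Patj had the smallest p. Patj encodes a scaffold of the Crumbs polarity complex at tight junctions and had 10.8, 11.2, 7.84 and 9.34 CPM in VAMP7KO against 68.3, 68.9, 50.9 and 57.5 CPM in ATG5KO (log2 fold change -2.65, standard error 0.0929). Sort1, the sorting receptor sortilin that carries cargo from the Golgi to endosomes, had 14.6, 13.9, 7.76 and 6.62 CPM against 78, 69.4, 41.6 and 39.2 CPM. WT averaged 1.77 CPM of Sort1, below both knockouts. Megf10, a receptor for engulfment of dying cells, had 15.3, 13.1, 3.57 and 3.08 CPM against 68.3, 56.9, 19.2 and 17.2 CPM and was also lowest in WT at 1.52 CPM. Igsf8, a tetraspanin partner, had 41, 36.6, 23.1 and 21.9 CPM against 137, 153, 106 and 107 CPM. Cnp (-1.77), Gprc5c (-2.30) and Sohlh2 (-1.51 on the log2 scale) were lower in VAMP7KO and had WT means of 17.4, 11.4 and 58.9 CPM, each nearer to VAMP7KO than to ATG5KO.

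Of 39 tested genes of fibrillar and elastic matrix, 10 were higher in VAMP7KO, 25 were lower and 4 did not pass the test (5 higher and 13 lower when summed by set). The shares, 25.6% higher and 64.1% lower, were near the 19.6% and 59.1% of all named genes. The median log2 fold change was -0.88. Col1a1, the alpha 1 chain of type I collagen, had 1427, 1542, 849 and 795 CPM in VAMP7KO and 2606, 2582, 1519 and 1630.1 CPM in ATG5KO (log2 fold change -0.88, standard error 0.121). Within each set ATG5KO was higher, but libraries 1 and 2 of VAMP7KO came close to libraries 3 and 4 of ATG5KO. Col3a1, of type III collagen, had 1334, 1307, 208 and 195 CPM against 1027, 1026, 558 and 572 CPM and did not pass the test (adjusted p = 0.124), since the order of the lines differed between the sets. Col12a1, a collagen that decorates fibrils, averaged 246 ± 37.4 CPM and 244 ± 33.8 CPM, a log2 fold change of 0.02. This value averages opposite differences, 0.37 in set 1-2 alone and -0.34 in set 3-4 alone, each of them called. Eln, the elastin gene, was at the floor in VAMP7KO and had 3.76, 3.16, 9.7 and 7.23 CPM in ATG5KO, at least 51-fold more. Prelp, a leucine-rich proteoglycan that anchors basement membranes, had 0.134, 0.226, 0.325 and 0.781 CPM against 24.3, 17.9, 63.5 and 55.5 CPM (log2 fold change -6.80). Loxl3, an enzyme that crosslinks collagen and elastin, had 11.1, 9.95, 4.37 and 3.99 CPM against 96.1, 101, 43.1 and 40.6 CPM. Fbln7, a fibulin, went the other way, with 3.61, 5.16, 2.38 and 2.47 CPM in VAMP7KO and 0.418, 0.347, 0.0718 and 0.184 CPM in ATG5KO. Postn, or periostin, was at 0 in all 4 ATG5KO libraries and had 0.334, 0.226, 4.08 and 5.02 CPM in VAMP7KO, so that the bound of 19.7-fold came from libraries 3 and 4.

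In the basement membrane, 2 laminin chains moved in opposite directions. Lama2, the laminin alpha 2 chain, had 373, 309, 265 and 249 CPM in VAMP7KO and 122, 99.6, 119.8 and 129 CPM in ATG5KO (log2 fold change 1.31). Lama4, the alpha 4 chain, had 1.3, 1.27, 1.81 and 1.28 CPM against 31.1, 32.8, 36.7 and 36.6 CPM (log2 fold change -4.59), and WT averaged 2.07 CPM. Of 10 genes of this group, 2 were higher, 5 lower and 3 not different by the test. The shares higher and lower, 20% and 50%, stand beside 19.6% and 59.1% of all named genes. Among 9 integrins, 3 were higher and 4 lower in VAMP7KO (1 and 2 when summed by set), shares of 33.3% and 44.4%. Itga7, the alpha 7 laminin receptor of muscle, had 95.4, 90.3, 116 and 112 CPM against 324, 298, 230.5 and 228 CPM (log2 fold change -1.39), and Itga3, the alpha 3 laminin receptor, had 458, 409, 949.8 and 928 CPM against 1023, 1163, 1043 and 1057 CPM (log2 fold change -0.76).

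Of 23 proteases that cut matrix, and their inhibitors, 5 were higher and 13 lower in VAMP7KO (5 and 8 when summed by set), shares near the 19.6% and 59.1% of all named genes. Mmp3, or stromelysin 1, had 2.14, 2.04, 54 and 47.7 CPM in VAMP7KO and 143, 155, 1104 and 1085 CPM in ATG5KO, and WT averaged 319 CPM. Its log2 fold change was -6.14 in set 1-2 and -4.43 in set 3-4, so the lines stood far apart in both sets while the level itself rose several-fold from one set to the other in both. Timp3, the tissue inhibitor of metalloproteinases that binds matrix, had 0.1, 0.181, 0 and 0.0411 CPM against 12, 11.3, 6.36 and 7.05 CPM (log2 fold change -6.84). Adamts9, a protease of proteoglycans, had 11.9, 7.46, 13.6 and 12.8 CPM against 1.07, 0.763, 0.108 and 0.23 CPM (log2 fold change 4.47), in favour of VAMP7KO. Mmp13, or collagenase 3, had 10.8, 11.6, 0.758 and 1.03 CPM in VAMP7KO against 0.325, 0.347, 0.18 and 0.323 CPM in ATG5KO, and its libraries 1 and 2 held most of it.

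More genes were higher than lower in VAMP7KO in 3 of the gene lists: serum response and YAP targets, ATF4 targets and the unfolded protein response. Serum response factor and its partner MRTF sense free actin, whereas YAP and TEAD sense cell tension and contact, and both pathways feed cytoskeletal and matricellular genes. Of 27 tested members, 11 were higher in VAMP7KO, 7 were lower and 9 did not pass (7 higher and 4 lower when summed by set), a median log2 fold change of 0.11, against shares of 19.6% higher and 59.1% lower among all named genes. For 21 of the 27 the difference depended on the set (adjusted p under 0.05 for the interaction of genotype and set), whereas 17.4% of all genes tested did so. Ccn2 (ENSRNOG00000015036), the matricellular protein CTGF and a standard YAP target, had 708, 848, 543 and 616 CPM in VAMP7KO and 162, 160.2, 171 and 169 CPM in ATG5KO, with 164 CPM in WT. The log2 fold change was 2.03 (standard error 0.128, edgeR adjusted p = 9.02e-08). Ccn1, its relative CYR61, had 568, 723, 942 and 963 CPM against 335, 379, 265 and 273 CPM (log2 fold change 1.28). Acta2, smooth muscle actin, had 47.6, 45.1, 94.1 and 109 CPM against 11.5, 9.85, 7.4 and 6.22 CPM (log2 fold change 2.94). In these 3 genes no VAMP7KO library overlapped one of ATG5KO. Amot, a YAP-binding angiomotin, was higher in VAMP7KO at 14.9 ± 3.88 CPM against 3.63 ± 0.289 CPM. Yap1 itself averaged 281 ± 13.7 and 264 ± 17.3 CPM and did not pass the test, though it was called higher in set 1-2 alone (log2 fold change 0.24). Among members lower in VAMP7KO were Edn1, the endothelin 1 gene, with 0.434, 0.317, 1.7 and 1.15 CPM against 25.5, 29, 20.01 and 20.7 CPM, and Tns1, a focal adhesion tensin, with 48.9, 34.7, 52.5 and 50.6 CPM against 177, 126, 207 and 211 CPM.

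The promoter of Ccn2 is shown because it holds the core TEAD motif GGAATG, searched on both strands, at 3 places, in capitals. The motif occurs in 14.2% of 33469 rat promoter windows of 300 bases and in 8 of the 21 windows found for members of this group, Ccn1 and Acta2 among them. Of the 8 genes, 4 were higher in VAMP7KO and 4 were not, Yap1, Thbs1 and Flnc among the latter. The window runs from 250 bases before to 50 after the start of the gene (RefSeq, build GRCr8, chr1:22624565-22624864, minus strand).
Ccn2: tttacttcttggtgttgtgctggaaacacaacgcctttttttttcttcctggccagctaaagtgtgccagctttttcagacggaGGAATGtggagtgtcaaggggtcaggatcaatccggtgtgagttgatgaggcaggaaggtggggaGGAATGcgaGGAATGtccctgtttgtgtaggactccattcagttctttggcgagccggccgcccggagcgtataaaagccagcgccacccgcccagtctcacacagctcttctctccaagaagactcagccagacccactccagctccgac

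Of 20 genes of the smooth muscle contractile programme, 9 were higher and 9 lower in VAMP7KO (5 and 7 when summed by set). The share was 45% each way, beside 19.6% higher and 59.1% lower among all named genes. Dmd, or dystrophin, had 3.91, 4.52, 4.55 and 3.99 CPM in VAMP7KO and was at the floor in ATG5KO, at least 34.7-fold lower, while WT averaged 4.44 CPM. Actg2, smooth muscle gamma actin, had 0.835, 0.95, 10.5 and 14.9 CPM against 0.325, 0.347, 0.539 and 0.645 CPM, with most reads in libraries 3 and 4 of VAMP7KO. Des, the muscle intermediate filament desmin, had 1, 0.769, 1.19 and 1.48 CPM in VAMP7KO and 69.5, 70.5, 60.6 and 66.7 CPM in ATG5KO (log2 fold change -5.90, standard error 0.283). Synpo2, a Z-disc and stress fibre protein, had 1.44, 1.45, 1.44 and 1.97 CPM against 28.1, 32.1, 48.6 and 49.7 CPM (log2 fold change -4.63). WT was close to VAMP7KO in both, at 2.79 and 1.33 CPM.

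Of 35 genes of skeletal and cardiac muscle, 22 were lower and 6 higher in VAMP7KO (19 and 2 when summed by set), shares near those of all named genes (59.1% and 19.6%), with a median of -2.07. Beside Myod1, Musk, the receptor kinase of the neuromuscular junction, had 0.134, 0.136, 0.108 and 0.0823 CPM against 14.9, 15.5, 9.02 and 8.2 CPM (log2 fold change -6.63). Cacnb1, the calcium channel subunit of the skeletal muscle triad, had 0.568, 0.905, 0.0722 and 0.411 CPM against 35, 37.7, 20.8 and 18.2 CPM (log2 fold change -5.90). Cdh15, or M-cadherin of muscle precursors, was at the floor in VAMP7KO and averaged 1.32 ± 0.274 CPM in ATG5KO. Of the 6 members higher in VAMP7KO, Xirp2, an actin-binding protein of striated muscle, had 1.44, 1.13, 1.37 and 1.36 CPM against 0, 0.208, 0.0359 and 0 CPM.

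Markers of cell types were then set against the labelled epithelial nature of the cells. Of the 5 markers of epithelium fixed for this purpose, Krt8, Krt18, Krt19, Epcam and Cdh1, only Krt8 has a symbol here. Krt8, a keratin of simple epithelia, had 524, 571, 452 and 462 CPM in VAMP7KO and 552, 659, 762 and 780.4 CPM in ATG5KO (log2 fold change -0.44, standard error 0.121), with overlapping libraries. Of the 6 fibroblast markers, 5 have a symbol, and all of them were read. Col1a1 and Col3a1 were abundant, Lum, a collagen-binding proteoglycan, had 263, 315, 48.4 and 45.4 CPM against 122, 119, 15.7 and 18.5 CPM, Dcn, or decorin, averaged 2.2 ± 0.422 and 0.806 ± 0.144 CPM, and Thy1 was read in ATG5KO almost alone. Both lines thus expressed collagen genes beside a keratin, and the label could be checked against 1 epithelial marker only. The fibroblast and mesenchyme list summed to 1450.2 to 3745 CPM in VAMP7KO libraries and 2799 to 5009 CPM in ATG5KO libraries, with 5 of 20 genes higher and 13 lower in VAMP7KO (1 and 9 when summed by set). These shares, 25% and 65%, were near the 19.6% and 59.1% of all named genes. Tmem119, a gene of bone-forming cells, had 0.267, 0.905, 0.289 and 0.206 CPM against 30.5, 32.7, 36.3 and 33.1 CPM. Fewer cells of a type and less RNA per cell cannot be told apart in such bulk libraries.

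Of 30 epithelial and mesothelial genes, 23 were lower in VAMP7KO (76.7%) and 4 higher (13.3%), beside 59.1% and 19.6% of all named genes. The list summed to 1205 to 1314 CPM in VAMP7KO and 2669 to 3068 CPM in ATG5KO. Upk3b, a uroplakin that mesothelium expresses, had 3.27, 2.8, 1.3 and 0.905 CPM against 326, 331, 90.5 and 86 CPM (log2 fold change -6.57, standard error 0.123). Lrrn4, another mesothelial gene, had 1.17, 0.905, 0.217 and 0.329 CPM against 169.6, 171, 33.4 and 34.1 CPM (log2 fold change -7.22, standard error 0.116). Both were higher in set 1-2 than in set 3-4 of each line, and WT averaged 2.33 and 1.21 CPM. Dsc2, a desmosomal cadherin, went the other way, with 8.45, 7.06, 7.15 and 8.23 CPM in VAMP7KO and the floor in ATG5KO, at least 63.1-fold lower, while WT averaged 16.6 CPM. Of 18 kidney tubule genes, 4 were higher and 13 lower in VAMP7KO (3 and 6 when summed by set). Trpm6, the magnesium channel of the distal tubule, had 4.08, 3.08, 4.66 and 4.73 CPM against 0.929, 0.902, 0.718 and 0.875 CPM. Lrp2, or megalin of the proximal tubule, averaged 0.171 ± 0.0725 CPM against 0.857 ± 0.123 CPM.

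Genes of endothelium and leukocytes were low in both lines, and the part of such cells in any other difference was not tested. Of 15 endothelial genes, 2 were higher and 12 lower in VAMP7KO (1 and 9 when summed by set), summing to 42.8 to 65.5 CPM there and 136 to 158 CPM in ATG5KO. The shares, 13.3% higher and 80% lower, stand beside 19.6% and 59.1% of all named genes. Thbd, or thrombomodulin, had 0.134, 0.136, 0 and 0 CPM against 6.09, 5.9, 10.3 and 10.6 CPM. Of 27 leukocyte genes, 4 were higher and 16 lower (1 and 11 when summed by set), summing to 86.6 to 114 and 150.02 to 171 CPM. Their shares, 14.8% and 59.3%, were near those of all named genes. Ptprc, the pan-leukocyte antigen CD45, was at the floor in all 8 libraries, with 0 counts in VAMP7KO. Nlrp3, an inflammasome sensor also counted in that list, had 15.9, 13.7, 35.4 and 38.5 CPM in VAMP7KO and 9.24, 9.19, 14.4 and 15.6 CPM in ATG5KO (log2 fold change 1.01).

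Of 46 transcription factors of lineage choice, 12 were higher (26.1%) and 23 lower (50%) in VAMP7KO, or 8 and 14 when summed by set. All named genes had shares of 19.6% higher and 59.1% lower. Id4, a repressor of basic helix-loop-helix factors, had 4.91, 6.15, 2.92 and 2.59 CPM in VAMP7KO and was at the floor in ATG5KO, at least 33.9-fold lower. Alx1, a homeobox factor of cranial mesenchyme, had 5.71, 8.23, 1.73 and 1.4 CPM against 0.465, 0.416, 0.0359 and 0.0921 CPM (log2 fold change 4.03), and Sim1, a factor of the hypothalamus, had 2.17, 2.04, 7.87 and 6.7 CPM against 0.232, 0.381, 0.611 and 0.645 CPM (log2 fold change 3.21). Pitx1, a homeobox factor of the hindlimb, averaged 1.09 ± 0.422 CPM and was at the floor in ATG5KO. In the other direction, Nkx2-3 was at the floor in VAMP7KO and had 3.53, 3.5, 2.95 and 4.47 CPM in ATG5KO, at least 30.9-fold more. Meox1 of the somites, Alx4 and Tfap2e had 0 counts in VAMP7KO and averaged 2.42 ± 0.656, 1.86 ± 0.69 and 1.61 ± 0.555 CPM in ATG5KO. Of 19 cadherins and protocadherins, 3 were higher and 11 lower (1 and 6 when summed by set), shares of 15.8% and 57.9%, near those of all named genes. Fat2, a giant protocadherin of migrating epithelia, was at the floor against 10.3, 9.85, 8.23 and 8.94 CPM, and Cdh18 was at the floor against 7.01, 7.77, 3.84 and 4.1 CPM.

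**Figure D3:**
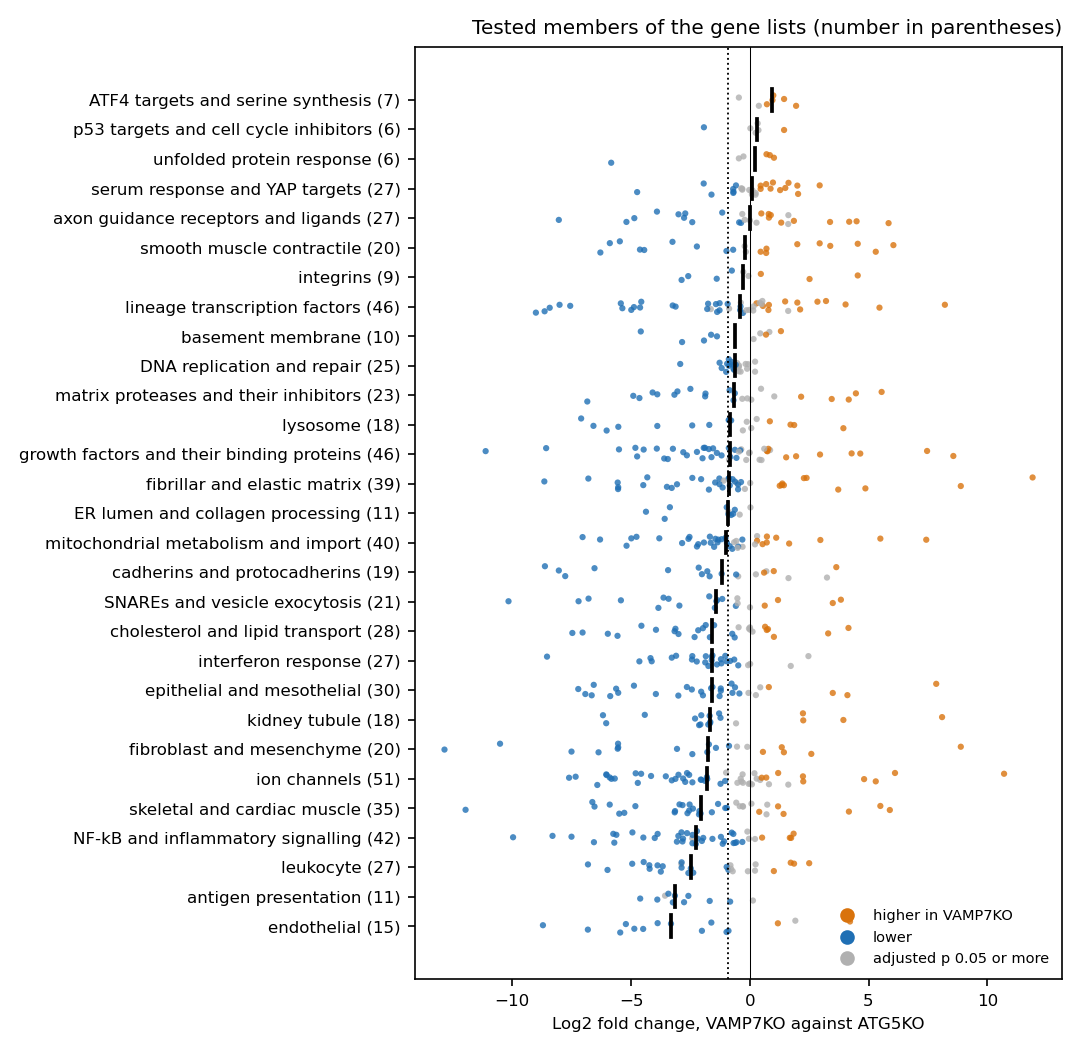
Log2 fold change of VAMP7KO against ATG5KO (horizontal axis) for each tested member of the 29 gene lists with a symbol, one row per list with the number tested, coloured orange when higher in VAMP7KO, blue when lower and grey when the adjusted p was 0.05 or more; the black bar is the list median and the dotted line the median of all named genes (-0.91). The ATF4 list has its median furthest to the right, at 0.95, and the endothelial list furthest to the left, at -3.32.

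Stress of the endoplasmic reticulum was examined because loss of either gene touches the clearance or release of this organelle. Misfolded protein activates the sensors IRE1, PERK and ATF6, and PERK acts through phosphorylated eIF2alpha and the transcription factor ATF4, which raises genes of amino acid supply. Of 42 genes in the list of ATF4 targets and serine synthesis, only 7 have a symbol and were tested. Of these 7, 5 were higher in VAMP7KO (71.4%), none was lower and 2 did not pass. All named genes had shares of 19.6% higher and 59.1% lower. Sesn2, a stress-induced inhibitor of mTORC1, had 115, 104, 103 and 102 CPM in VAMP7KO and 31.7, 29.3, 53.4 and 50.1 CPM in ATG5KO, with 65.8 CPM in WT (log2 fold change 1.44, standard error 0.173, edgeR adjusted p = 2.32e-05). Lars1, the leucyl-tRNA synthetase, had 349, 319.9, 269 and 276 CPM against 122, 131, 183 and 190.2 CPM (log2 fold change 0.99). Psph, the last enzyme of serine synthesis, had 108, 108, 78.2 and 81.6 CPM against 35.7, 46.3, 59 and 56.9 CPM (log2 fold change 0.95). Inhbe, an inhibin beta chain induced by ER stress, had 85.6, 83, 34.2 and 37.6 CPM against 7.29, 10.8, 24.6 and 23 CPM (log2 fold change 1.95), and Gpt2, the mitochondrial alanine transaminase, had 107, 97.5, 52.9 and 50.6 CPM against 47.1, 48.3, 42 and 40.7 CPM (log2 fold change 0.72). No library overlapped between the lines in these 5 genes.

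The size of the ATF4-type difference depended on the set. In 6 of the 7 genes the difference was smaller in set 3-4 than in set 1-2, with an adjusted p under 0.05 for the interaction. Sesn2 had a log2 fold change of 1.86 in set 1-2 and 0.98 in set 3-4, and Inhbe one of 3.22 and 0.58. Phgdh, the first enzyme of serine synthesis, changed sign: it had 65.1, 64, 49 and 49.7 CPM in VAMP7KO and 22.7, 33.4, 69.2 and 74.3 CPM in ATG5KO, a log2 fold change of 1.21 in set 1-2 and -0.54 in set 3-4, and did not pass the test over both sets. In ATG5KO, all 3 of these genes were higher in libraries 3 and 4 than in libraries 1 and 2. Summed by set, 2 of the 7 genes differed. Stc2, a secreted stanniocalcin induced by ER stress, averaged 3.25 ± 0.924 and 4.53 ± 2.02 CPM and did not pass. It was called lower in VAMP7KO in set 1-2 alone (log2 fold change -0.62) and in a fit of only the 8 knockout libraries (-0.44).

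Of 44 genes in the list of the unfolded protein response, only 6 have a symbol and were tested. Of these 6, 3 were higher in VAMP7KO and 1 was lower. Spcs3, a subunit of the signal peptidase that trims proteins entering the ER, had 220.1, 215, 252 and 248 CPM in VAMP7KO and 118, 129.5, 136 and 136 CPM in ATG5KO, with 154 CPM in WT (log2 fold change 0.84, standard error 0.063, edgeR adjusted p = 4.01e-07). Ostc, a subunit of oligosaccharyltransferase, had 133, 143, 97.9 and 102 CPM against 71.4, 88.4, 70.4 and 60.2 CPM (log2 fold change 0.70). Casp12, a caspase of the ER, had 86, 98.6, 57.1 and 58.2 CPM against 35.4, 32.6, 39.1 and 38.4 CPM (log2 fold change 1.02). The sensor gene Ern1, which encodes IRE1, averaged 14.1 ± 4.61 and 16.8 ± 3.97 CPM and did not pass (adjusted p = 0.0756 from edgeR). It was called lower in VAMP7KO with a replicate block by number (log2 fold change -0.28) and without VAMP7KO library 1 (-0.35). Creb3l1, or OASIS, an ER-bound factor that drives collagen secretion, was at the floor in VAMP7KO and averaged 1.36 ± 0.263 CPM in ATG5KO. Genes of the ER lumen and of collagen processing were lower in VAMP7KO in 8 of 11 cases (72.7%) and higher in none. Of all named genes, 59.1% were lower and 19.6% higher. Fkbp10, a collagen chaperone, had 9.22, 10.5, 3.5 and 4.11 CPM against 89.98, 89.96, 62.3 and 59.2 CPM (log2 fold change -3.59), with 0.666 CPM in WT, and Selenom, a selenoprotein of the ER, had 1.5, 1.13, 0.578 and 0.535 CPM against 11.1, 10.9, 7.29 and 7.42 CPM (log2 fold change -3.37). P3h2, a prolyl hydroxylase of basement membrane collagen, averaged 27.7 ± 2.93 and 28.3 ± 8.04 CPM. Its log2 fold change was 0.38 in set 1-2 alone and -0.33 in set 3-4 alone, each of them called.

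The promoter of Inhbe is shown because it was the single one of 7 in the ATF4 group to hold the composite C/EBP-ATF element TGATGNAA, searched on both strands and in capitals below, which occurs in 3.98% of all windows (RefSeq, build GRCr8, chr7:65064470-65064769, minus strand). The match lies on the opposite strand, 228 bases before the start of the gene.
Inhbe: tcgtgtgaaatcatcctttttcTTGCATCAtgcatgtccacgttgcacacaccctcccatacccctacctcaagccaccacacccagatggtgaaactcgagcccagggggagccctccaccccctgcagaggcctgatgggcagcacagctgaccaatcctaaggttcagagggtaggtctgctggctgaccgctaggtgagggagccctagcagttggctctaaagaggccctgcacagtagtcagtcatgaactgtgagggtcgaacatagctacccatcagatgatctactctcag

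**Figure D4:**
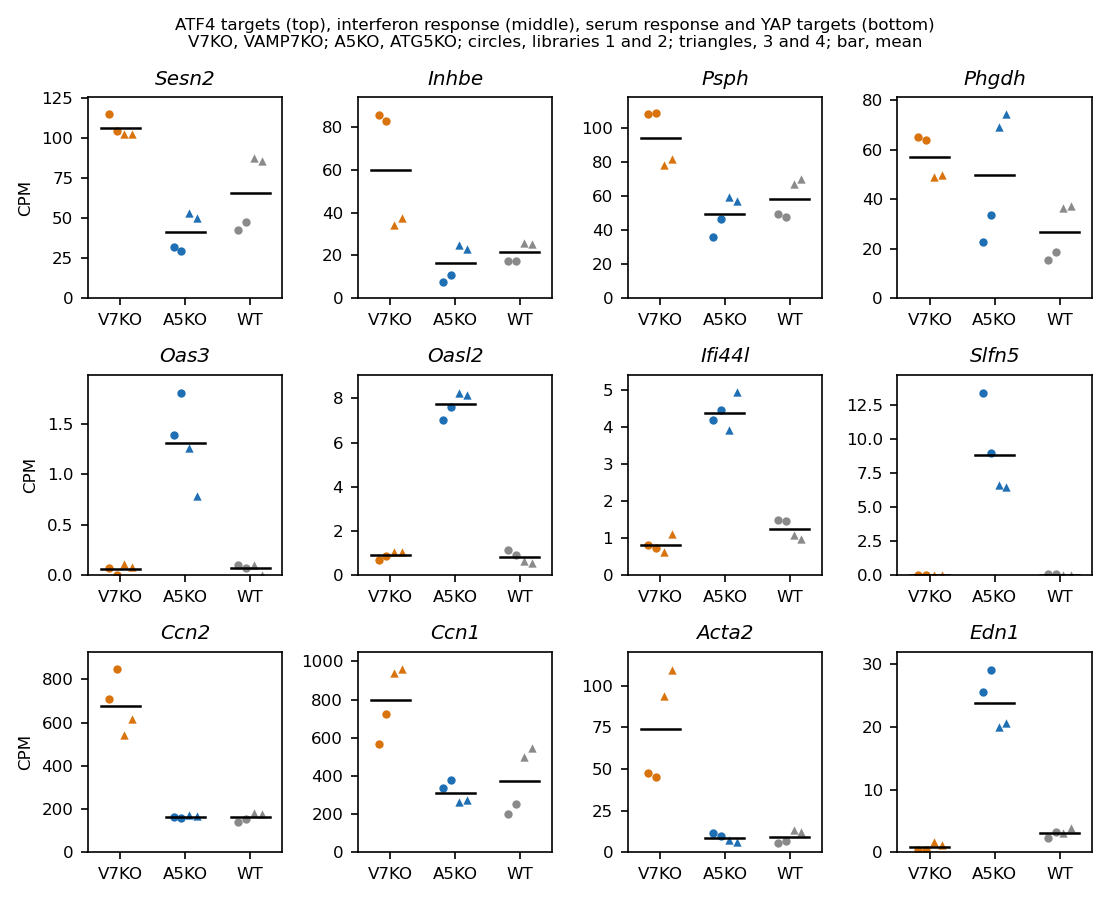
CPM of each library (vertical axis, from 0) of 12 genes of the ATF4 list (Sesn2, Inhbe, Psph, Phgdh), the interferon response (Oas3, Oasl2, Ifi44l, Slfn5) and the serum response and YAP list (Ccn2, Ccn1, Acta2, Edn1), with circles for libraries 1 and 2, triangles for libraries 3 and 4 and a bar at the mean of each genotype. The 4 interferon genes and Edn1 are higher in every ATG5KO library than in any VAMP7KO library, Phgdh overlaps, and the other 6 genes are higher in every VAMP7KO library.

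Genes of the interferon response were mostly lower in VAMP7KO. Interferons signal through JAK kinases to transcription factors that bind the interferon-stimulated response element of antiviral genes. Of 27 tested members, 23 were lower in VAMP7KO, none was higher and 4 did not pass (15 lower and none higher when summed by set), with a median of -1.60. The share lower, 85.2%, stands beside 59.1% of all named genes. Members summed to 324 to 337 CPM in VAMP7KO libraries, 722 to 823 CPM in ATG5KO libraries and 399 to 729 CPM in WT libraries. Slfn5, a schlafen that restricts viruses, was at the floor in VAMP7KO and had 13.4, 9.02, 6.61 and 6.45 CPM in ATG5KO, at least 75.8-fold more. Oas3, which makes oligoadenylates, was at the floor in VAMP7KO and had 1.39, 1.8, 1.26 and 0.783 CPM in ATG5KO, and its relative Oasl2 had 0.668, 0.86, 1.05 and 1.03 CPM against 7.01, 7.59, 8.26 and 8.16 CPM (log2 fold change -3.11). Dhx58, or LGP2, a helper of the RNA sensor RIG-I, had 0.2, 0.724, 0.181 and 0.0823 CPM against 9.66, 9.02, 3.84 and 4.79 CPM (log2 fold change -4.65). Ifi44l had 0.802, 0.724, 0.614 and 1.11 CPM against 4.18, 4.44, 3.92 and 4.93 CPM and Xaf1, an antagonist of XIAP, had 2.24, 2.35, 2.38 and 2.67 CPM against 7.66, 7.28, 7.47 and 6.82 CPM. No library overlapped in these 6 genes. Isg20, an interferon-induced exonuclease, averaged 8.69 ± 1.29 and 8.62 ± 1.19 CPM and did not differ by the test.

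Promoter windows were found for 22 of the 27 tested interferon genes, and 12 held the core of the response element, 2 GAAA half-sites with NN between them, on either strand, against 3.92% of all windows. Of the 12 genes, 11 were lower in VAMP7KO, and Isg20 was the one that did not pass. Over the whole list, with or without the motif, 23 of 27 were lower (85.2%), and 59.1% of all named genes were. Whether direction goes with the motif was not tested. The first match of each of 8 of them is shown in capitals within 30 bases of its own gene strand (RefSeq, build GRCr8).
Oas3: gcagagaggaGAAAACGAAAgtgaatgatc
Oasl2: aaagctttggTTTCAGTTTCcaggcttgag
Ifi44l: tctgcttggcTTTCTTTTTCtcatcctgtt
Gbp4: agaagcagggTTTCGATTTCggttcccttt
Xaf1: tgtgtgcaaaGAAACAGAAActccaccgaa
Epsti1: tggttaaagaGAAATCGAAActcagctgtt
Trim21: cctctgagagGAAACTGAAAGTGAAAttag
Isg20: taatgaaccaGAAACTGAAActaaaacggc

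The matches of Oasl2, Ifi44l and Gbp4 lie on the opposite strand. In Trim21 a second match overlaps the first, which lengthens the run in capitals. The matches begin 95 bases before the start of Oas3, 151 before that of Oasl2, 91 before Ifi44l, 10 before Gbp4, 11 before Xaf1, 35 before Epsti1, 18 before Trim21 and 92 before Isg20. Trim21, an antibody receptor in the cytosol, had 12.2, 13.6, 11 and 12.1 CPM against 18.2, 15.8, 16.4 and 17.9 CPM, and Epsti1 had 0.234, 0.452, 0.758 and 1.28 CPM against 2.42, 2.08, 2.66 and 2.4 CPM. A match is a description of the letters in the window and says nothing of binding in these cells.

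Antigen presentation and inflammatory signalling also had more genes lower than higher, as did all named genes (59.1% lower, 19.6% higher). Of 11 genes of antigen presentation, 9 were lower in VAMP7KO (81.8%) and none was higher (5 and none when summed by set). RT1-Db1, a class II chain, had 0.368, 0.181, 0.506 and 0.37 CPM in VAMP7KO and 3.58, 4.44, 3.2 and 2.81 CPM in ATG5KO (log2 fold change -3.24), both under the WT mean of 15.9 CPM, and reads of near-identical RT1 genes can be split between copies. Of 42 genes of NF-kB and inflammatory signalling, 34 were lower (81%) and 4 higher (9.52%), or 22 and 2 when summed by set. The list summed to 506 to 713 CPM in VAMP7KO, 1822 to 2073 CPM in ATG5KO and 867 to 1167 CPM in WT. Vcam1, the adhesion molecule that leukocytes bind, had 3.04, 4.52, 4.73 and 4.73 CPM against 271, 261, 200.3 and 191 CPM (log2 fold change -5.75, standard error 0.157). Cxcl12, the chemokine that retains stem and immune cells, had 0.167, 0.271, 0.0722 and 0 CPM against 39.5, 35.6, 9.81 and 9.08 CPM (log2 fold change -7.51). Ptx3, a soluble pattern receptor, was at the floor in VAMP7KO and averaged 1.38 ± 0.908 CPM in ATG5KO. The TNF receptor gene Tnfrsf1b (1.84 on the log2 scale), the hyaluronan-binding Tnfaip6 (1.74) and the cytokine Il6 (0.52) were higher in VAMP7KO. For Il6 the values were 4.85, 5.02, 3.86 and 5.31 CPM against 4.6, 3.09, 2.95 and 2.76 CPM, and the lines overlapped. Without library 4 of VAMP7KO the difference in Il6 did not pass (log2 fold change 0.42, adjusted p = 0.0582 from edgeR).

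Genes of vesicle fusion and exocytosis, the process in which VAMP7 acts, were lower in VAMP7KO in 14 of 21 cases and higher in 4, shares of 66.7% and 19.0% beside 59.1% and 19.6% of all named genes. Rab27a, the small GTPase that docks exosome-bearing and secretory vesicles, was at the floor in VAMP7KO and had 3.67, 4.51, 3.84 and 2.44 CPM in ATG5KO, at least 30.9-fold more, with 0.171 CPM in WT. Exph5, a Rab27 effector, had 0.468, 0.226, 0 and 0 CPM against 10.8, 9.61, 3.77 and 3.78 CPM. Syt8, a synaptotagmin, had 0 counts in VAMP7KO and averaged 0.679 ± 0.232 CPM in ATG5KO. Another Rab27 effector, Sytl4 or granuphilin, stood on the other side with 34, 25.5, 19.97 and 19.6 CPM in VAMP7KO against 2.23, 1.73, 1.47 and 1.47 CPM in ATG5KO (log2 fold change 3.84, standard error 0.149), while WT averaged 1.8 CPM. Rab3il1, an exchange factor of Rab8 and Rab3, had 13.8, 13.8, 13.2 and 13.2 CPM against 6.83, 6.35, 4.92 and 5.71 CPM (log2 fold change 1.19). Exoc3, the Sec6 subunit of the exocyst tether, had 92.2, 93.4, 80.7 and 77.4 CPM against 57.9, 57.3, 54.1 and 53 CPM (log2 fold change 0.63). Myo5b, a motor of recycling endosomes, averaged 0.735 ± 0.186 CPM in VAMP7KO and was at the floor in ATG5KO.

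Of 18 lysosomal genes, 4 were higher (22.2%) and 10 lower (55.6%) in VAMP7KO, near the 19.6% and 59.1% of all named genes. Beside Ctbs, Manba, the lysosomal beta-mannosidase, had 16.6, 16.9, 15.6 and 15.3 CPM against 5.71, 5.27, 4.6 and 4.19 CPM (log2 fold change 1.71). Rragd, a GTPase that tethers mTORC1 to lysosomes, had 4.11, 6.38, 3.11 and 3.5 CPM against 3.16, 2.46, 1.94 and 1.89 CPM (log2 fold change 0.84). Tmem106a was at the floor in VAMP7KO and averaged 1.96 ± 0.4 CPM in ATG5KO, and Smpdl3a had 0 counts there and averaged 0.435 ± 0.0726 CPM in ATG5KO. Cln3, a lysosomal membrane protein mutated in Batten disease, averaged 7.44 ± 1.17 and 7.11 ± 0.88 CPM, a log2 fold change of 0.06 with a 95% interval of -0.35 to 0.47.

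The counts of lipid and mitochondrial genes were near the shares of all named genes, 19.6% higher and 59.1% lower. Of 28 genes of cholesterol and lipid transport, 6 were higher (21.4%) and 17 lower (60.7%) in VAMP7KO. Scarb1, the HDL receptor, had 0.401, 0.633, 0 and 0.123 CPM against 91.1, 89.5, 9.77 and 8.89 CPM (log2 fold change -7.47, standard error 0.237), with set 1-2 of ATG5KO far above set 3-4. Phyh, the peroxisomal enzyme of phytanic acid breakdown, had 0.334, 0.317, 0.325 and 0.0411 CPM against 15, 14.2, 10.7 and 10.2 CPM (log2 fold change -5.57). Abca1, the exporter of cellular cholesterol, went the other way with 3.74, 2.53, 1.7 and 1.81 CPM in VAMP7KO against 0.232, 0.243, 0.287 and 0.184 CPM in ATG5KO (log2 fold change 3.30). Abhd5, the activator of triglyceride lipase, had 219, 226, 265 and 265 CPM against 115, 116, 122 and 129 CPM (log2 fold change 1.01). Of 40 tested genes of mitochondrial metabolism and import, 9 were higher (22.5%) and 25 lower (62.5%), or 4 and 18 when summed by set. Slc25a48, a carrier of the inner membrane, had 0.1, 0.271, 0.433 and 0.452 CPM against 29.9, 29.9, 20.5 and 20.7 CPM (log2 fold change -6.31), and Timm8a2, an import chaperone, had 0.267, 0.0452, 0.0361 and 0.123 CPM against 5.16, 5.1, 3.05 and 5.39 CPM (log2 fold change -5.19). Kyat3, an aminotransferase of kynurenine, was higher in VAMP7KO at 15.1, 14.9, 6.75 and 6.95 CPM against 1.58, 1.25, 1.33 and 1.15 CPM (log2 fold change 2.97). Cps1, the first enzyme of the urea cycle, averaged 2.57 ± 1.19 CPM in VAMP7KO and was at the floor in ATG5KO. Cox6a2, the muscle form of a cytochrome oxidase subunit, had 38.3, 47.3, 11.1 and 12 CPM against 0.279, 0.277, 1.15 and 1.24 CPM, a difference that was no longer called when the sets were summed.

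Signalling and membrane excitability genes gave mixed counts. Of 51 ion channels, 9 were higher and 28 lower in VAMP7KO (5 and 22 when summed by set), shares near those of all named genes (19.6% and 59.1%). Beside Abcc9, the calcium-activated chloride channel Ano2 had 4.88, 3.62, 7.58 and 7.53 CPM against 0, 0.0694, 0.144 and 0.0921 CPM (log2 fold change 6.11), and the AMPA receptor gene Gria1 had 13.3, 9.55, 4.41 and 4.15 CPM against 0.465, 0.277, 0.216 and 0.184 CPM (log2 fold change 4.81). Kcnj9, an inward rectifier of the GIRK family, had 0.234, 0.0452, 0.108 and 0.0411 CPM against 12.2, 11.6, 8.55 and 8.34 CPM (log2 fold change -6.42). Itpr1, the IP3 receptor of the ER, averaged 255 ± 20.9 and 239.6 ± 23.4 CPM. Of 46 growth factors and binding proteins, 10 were higher and 26 lower (4 and 18 when summed by set). Ptn, or pleiotrophin, had 3.14, 3.12, 0.542 and 0.247 CPM in VAMP7KO and 0 counts in ATG5KO, at least 14.4-fold lower. Epgn, or epigen, an EGF receptor ligand, was at the floor in VAMP7KO and had 1.3, 2.91, 8.26 and 8.71 CPM in ATG5KO. Mstn, or myostatin, had 0.0334, 0.0452, 0.144 and 0 CPM against 1.81, 2.77, 1.4 and 1.15 CPM. Of 27 axon guidance genes, 10 were higher and 11 lower (5 and 6 when summed by set). Flrt2, a ligand of Unc5 receptors, had 18.5, 16, 13.3 and 12.9 CPM against 0.65, 1.49, 0.216 and 0.323 CPM (log2 fold change 4.50), and Celsr2, an atypical cadherin, was at the floor in VAMP7KO and had 17.7, 20.8, 2.95 and 4.61 CPM in ATG5KO. The receptors Robo1 and Ntrk2 were low in both knockouts, with Robo1 at 0.342 ± 0.127 and 0.032 ± 0.0435 CPM against 15.2 CPM in WT, and Ntrk2 at 0.0103 ± 0.0206 and 0.204 ± 0.0976 CPM against 46.9 CPM.

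Genes of DNA replication and repair depended on the set. Of 25 tested members, 13 were lower in VAMP7KO (52%), none was higher and 12 did not pass. Among all named genes, 59.1% were lower and 19.6% higher. The interaction of genotype and set passed for 18 of the 25, against 23.9% of all named genes and 17.4% of all genes tested. In set 3-4 alone 23 of the 25 were lower, and 4192 of 13114 genes tested were lower there. In set 1-2 alone 7 were lower and 3 higher, where 2929 of 13456 genes were lower and 2665 higher. Summed by set, 1 was lower. Brca1, of homologous recombination, had 27.8, 16.9, 26.5 and 21.7 CPM in VAMP7KO and 24.5, 28.8, 68.1 and 67 CPM in ATG5KO, a log2 fold change of -0.23 in set 1-2 and -1.48 in set 3-4. It passed over both sets (log2 fold change -0.996, adjusted p = 0.0466 from edgeR) but not without library 3 or 4 of ATG5KO or any 1 of the 4 VAMP7KO libraries, the smallest value being -0.78 without ATG5KO library 3. Xrcc3 had 2.24, 3.03, 3.61 and 3.41 CPM against 3.39, 3.68, 12.2 and 10.5 CPM. In both genes libraries 3 and 4 of ATG5KO stood above every other library. Tk1, the thymidine kinase of dividing cells, was lower in VAMP7KO in both sets, with 122, 91.6, 104 and 94.8 CPM against 244, 304, 234 and 221 CPM (log2 fold change -1.27). Of 6 p53 targets and cell cycle inhibitors, Sesn2 was higher and Fdxr, a mitochondrial ferredoxin reductase, was lower at 7.82, 8.14, 9.21 and 6.75 CPM against 33.4, 38.2, 28.6 and 22.7 CPM. Cdkn1a, the cell cycle inhibitor p21, averaged 111 ± 18 and 109 ± 7.22 CPM, a log2 fold change of 0.02 with a 95% interval of -0.19 to 0.23. Tested in each set alone, it was called in opposite directions, at 0.31 in set 1-2 and -0.26 in set 3-4.

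Over all genes tested, the difference between the lines depended on the set for 2283 genes (17.4%), and 530 of them did so by at least 2-fold. Tested in each set alone, 4227 genes differed in the same direction in both, 1200 of them by at least 2-fold in each, and 226 differed in opposite directions. Kcnj16, an inward rectifier of kidney tubules, had 89.4, 107, 1.95 and 2.55 CPM in VAMP7KO and 10.6, 8.39, 2.16 and 1.84 CPM in ATG5KO, a log2 fold change of 3.40 in set 1-2 and 0.16 in set 3-4. Aspnl1 reversed, with 258, 327, 8.52 and 7.81 CPM against 78.6, 52.3, 20.1 and 21.8 CPM, or 2.18 and -1.36 on the log2 scale. Acsm2, a medium-chain acyl-CoA synthetase, kept its direction at 5.64 and 1.49. Among those whose log2 fold change rose from set 1-2 to set 3-4, Cxcl3, a neutrophil chemokine, had 0.468, 0.452, 4.87 and 3.58 CPM against 21.8, 21.7, 7.51 and 6.73 CPM. Mmp10, or stromelysin 2, had 0.267, 0.588, 16.4 and 15.8 CPM against 10.8, 11.8, 36.5 and 37 CPM, and Fabp4, a fatty acid carrier, had 0.835, 1.49, 4.04 and 4.4 CPM against 23.1, 18.5, 5.1 and 4.28 CPM. The difference in Fabp4 (-1.86 on the log2 scale) did not pass without library 1 or 2 of ATG5KO (-1.60 and -1.74) or library 1 or 2 of VAMP7KO (-1.20 and -1.34). Adra2b, an adrenergic receptor, and Fxyd2, the gamma subunit of the sodium pump, were near 0 in libraries 1 and 2 of VAMP7KO, at 0.0334, 0, 0.65 and 0.658 and 0.0668, 0, 1.08 and 1.23 CPM, against 17, 16.5, 10.8 and 12.1 and 10.1, 9.57, 14.3 and 15.5 CPM in ATG5KO.

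**Figure D5:**
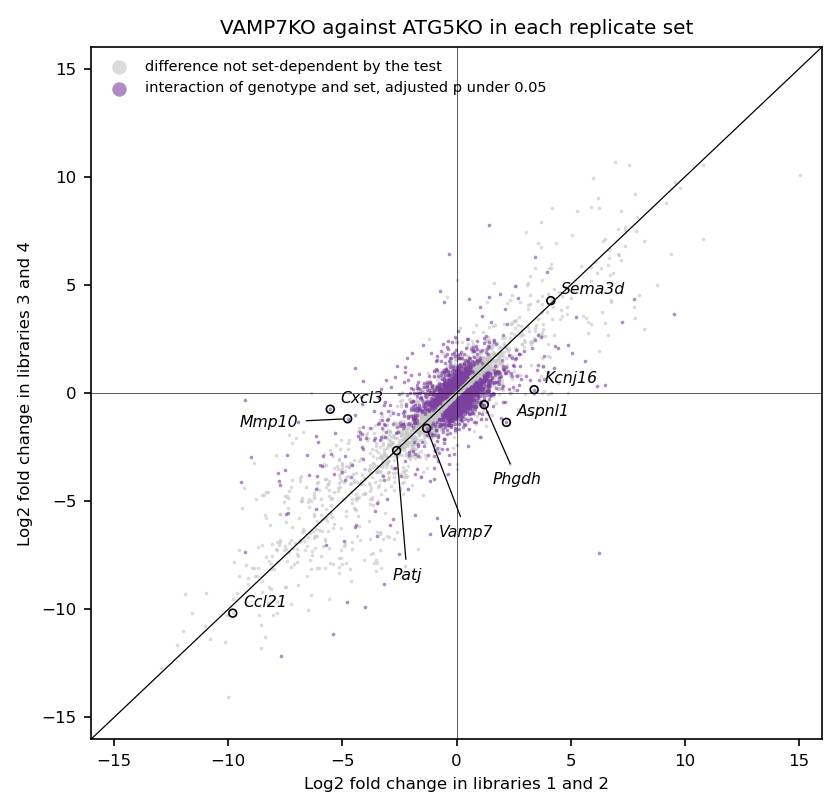
Log2 fold change of VAMP7KO against ATG5KO fitted on libraries 3 and 4 (vertical axis) and on libraries 1 and 2 (horizontal axis), one point per gene with a value in both fits, with the 2283 genes whose difference depended on the set in purple and the rest in grey; the diagonal marks equal values. Kcnj16, Aspnl1, Phgdh, Cxcl3 and Mmp10 lie off the diagonal, and Sema3d, Patj, Ccl21 and Vamp7 lie near it.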

How the data were processed

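Polyadenylated RNA from NRK cells of the 3 genotypes was sequenced with a stranded kit. The authors trimmed reads with cutadapt, removed ribosomal RNA with bowtie, aligned with STAR to mRatBN7.2 and deposited whole-number counts per Ensembl gene from htseq-count, not normalized. The header of the count table lacks 1 separator, which was restored so that each column had its own name. All 12 libraries were matched to labels, with 0 columns left over.

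Genes passing filterByExpr were fitted with edgeR 4.0.16 (R 4.3.3, limma 3.58.1): TMM, quasi-likelihood test, genotype and set as terms, VAMP7KO minus ATG5KO, Benjamini-Hochberg, threshold 0.05. Using all 12 libraries lets the 3 genotypes share the estimate of the spread. The interaction fit used 1 mean per genotype and set. CPM used the effective library sizes. The script was tested on simulated data. The set was the block by the terms of the comparison and was not chosen from the data. Deviations from genotype means correlated at 0.562 to 0.681 between same-numbered libraries, 0.529 to 0.677 between other libraries of the same set and -0.682 to -0.543 across sets. Each library came from 1 dish of an experiment that the study calls independent, and each knockout line from 1 clone. The p-values thus hold no spread between clones of a knockout. The spread they measure is pooled over the 3 genotypes. It joins that between the similar libraries of a set with any change of a difference between genotypes from set to set.

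The members and gene lists were chosen with earlier results of these data known. Named genes are Vamp7, the 12 largest non-overlapping differences each way at a mean of 10 CPM or more, the 8 smallest p each way at 5 CPM or more in both lines, the 4 extremes each way of each list (all members of lists of up to 8) with members near 0, and the 5 largest interactions each way. Not all of them are described. Ptprc, Vcam1, Loxl3, Ccn1, Oasl2, Ifi44l, Xaf1, Trim21, Epsti1, Gbp4, Thbs1 and Flnc, and the motifs searched, were chosen after values were seen, and Krt8, Col1a1 and Col3a1 as markers. The study's lists of changed genes gave only symbols; their fold changes and p-values were not used. Alternatives were DESeq2 1.42.0, its size factors, 2 other filters, other blocks, fewer libraries, summed sets and leaving out each library.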

Additional observations from a re-analysis of the deposited data

Results flagged for a closer look

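In a group of 4 libraries, 1 library can stand apart from the others by more than Dixon's criterion, which chance alone reaches in about 1 in 20 groups. Groups at the floor were not examined. In VAMP7KO this was the case for Sesn2 in library 1 (115.2 CPM), Vcam1 in library 1 (3.04 CPM), Lama4 in library 3 (1.81 CPM), Synpo2 in library 4 (1.97 CPM) and Phyh in library 4 (0.0411 CPM). Library 2 of VAMP7KO stood apart in 3 genes that are almost absent from this line, Thy1 (0.452 CPM), Slc37a2 (0.226 CPM) and Tmem119 (0.905 CPM). In ATG5KO it was the case for Amot in library 3 (4.06 CPM), Timm8a2 in library 3 (3.05 CPM), Mmp13 in library 3 (0.180 CPM), Meox1 in library 1 (3.39 CPM) and Limch1 in library 4 (0.184 CPM). In all 13 genes the library that stood apart was still on the same side of every library of the other line as the rest of its group.

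Among genes with a symbol that averaged 5 CPM or more in the 8 libraries, 10 had the largest differences between sets that passed edgeR's test of the interaction of genotype and set, 5 in each direction. The log2 fold change changed by -4.44 from set 1-2 to set 3-4 for Ptgs2, -4.14 for Acsm2, -3.97 for Cox6a2, -3.52 for Aspnl1 and -3.23 for Kcnj16. It rose by 3.60 for Mmp10, by 4.04 for Fabp4, by 4.15 for Fxyd2, by 4.80 for Cxcl3 and by 5.34 for Adra2b. VAMP7KO had no reads of Ptgs2 in set 3-4 and almost none of Adra2b and Fxyd2 in set 1-2. The sizes for these genes therefore depend on the prior count of the fit and are not measured changes. What the sets have in common is not given in the labels, and its part in these differences was not tested.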

How the results depend on the processing

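The number of genes that differed, 6289 with the set as a block, was 2997 with no replicate block and 1976 with the libraries summed within each set, and 5594 to 8250 under the other alternatives, among them 5903 with a replicate block by number and 6483 with DESeq2. Leaving out 1 library at a time gave 5634 to 6255. At 2-fold or more, 1753 genes became 1210 when summed and 2223 with every gene kept. The 2283 genes that depended on the set became 1407 without ATG5KO library 3 and 2563 without VAMP7KO library 1, the lowest and highest when 1 library was left out, and 1489 without VAMP7KO library 4. With the replicate number as a further block, added after seeing the data, it was 2711. That test could not be fitted within 1 set or on summed libraries, and was not run without the set. Fewer libraries enter the summed fit, and the cause of the other changes was not tested.

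Of 2982 values for the 166 named genes, 2906 kept their side of the threshold. Of these, 20 changed sign while not called in either fit, in Cdkn1a, Cln3, Col12a1, Isg20, P3h2 and Yap1. In 126 genes neither call nor sign changed. A call was involved in 6 changes of sign: Col3a1 was 0.38 on the log2 scale in libraries 1 and 2 alone, and in libraries 3 and 4 alone Aspnl1 was -1.36, Cdkn1a -0.26, Col12a1 -0.34, P3h2 -0.33 and Phgdh -0.54. In 14 values a gene not called with the set as a block was called on the same side. These were of Aspnl1, Cdkn1a, Col12a1, Col3a1, Ern1, Itpr1, P3h2, Phgdh, Ptprc, Stc2 and Yap1. Calls were lost for 25 genes when summed and for 11 with no replicate block. Brca1, Il6, Col1a1, Dcn, Flnc, Itga3, Kcnj16, Mmp10 and Tnfaip6 lost them in both, Lum and Nlrp3 with no block only, and Acsm2, Actg2, Ccn1, Cox6a2, Cxcl3, Epsti1, Fabp4, Gpt2, Inhbe, Krt8, Postn, Psph, Robo1, Rragd, Trim21 and Xrcc3 when summed only. With a block by number, Brca1 and Fabp4 lost theirs. Genes at a few counts are limited by depth, 3 counts being 0.0990 to 0.142 CPM.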

Other observations

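In a principal component analysis of all 12 libraries, the first component held 51.9% of the variance and set the ATG5KO libraries, at -82.2 to -62.6, apart from VAMP7KO (25.8 to 42.9) and WT (25.3 to 48.5), whose ranges overlapped. The second, with 22%, ordered libraries 1 and 2 above libraries 3 and 4 in each genotype, with VAMP7KO at 52.8 and 55 against -11 and -13.3, and ATG5KO at 15.7 and 14.1 against -30.7 and -31.8.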
